A study of Mus musculus with 9 samples.

Results

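The genes described here are 10 that encode actin-related, actin-capping, actin-bundling and calyx proteins of the testis: the fascins Fscn1 and Fscn3, the actin-like and actin-related genes Actl7a, Actl7b, Actrt1, Actrt2 and Actrt3, the capping protein subunit Capza3, and the cylicins Cylc1 and Cylc2. They were chosen by name, with earlier results of these data known, and found through the Ensembl gene IDs that GENCODE M21 pairs with these symbols. All 10 were found among the 23074 genes of the count table, and all 10 were among the 15613 genes tested. The RNA came from whole testes without their capsule, taken at postnatal days 29 to 30 from 9 mice, each giving 1 RNA-seq library. There were 5 wild type and 4 Rfx2-/- animals, and the comparison between them asked which testis mRNAs depend on RFX2, a transcription factor of male germ cells that binds the X-box motif. Both groups carried a mixed C57BL/6, 129/Sv and FVB/N background. The mutant allele lacks exon 7 of Rfx2, which encodes much of the DNA binding domain. It was removed in every tissue by an ACTB-driven Cre from an FVB/N strain, and the mixed background line described in the study's methods still carried the neomycin cassette. The study describes an arrest of spermatids at the round stage in these mutants, so the germ cell composition of the testes can differ between the groups too. In whole tissue, fewer cells of a type and less RNA per cell cannot be told apart.

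Round spermatids reorganise actin while the acrosome spreads over the nucleus. Actin filaments lie between the acrosome and the nuclear envelope, and the perinuclear theca with its calyx forms a rigid shell around the sperm nucleus. Fascins join filaments into tight parallel bundles, capping proteins close the fast-growing filament ends, and several actin-related proteins of the testis are built into the theca in place of conventional actin. The cylicins are basic proteins of the calyx.

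Of these genes, Fscn1 was the single one called lower in Rfx2-/- testis, by 2.81-fold, and Fscn3 had a level 2.07-fold lower that narrowly missed the limit. A gene was called when the adjusted p of edgeR's quasi-likelihood test (Benjamini-Hochberg over all genes tested) was at or under 0.01 and the difference exceeded 2-fold. By this rule 1 of the 10 was lower, against 3.68% of all genes tested, and 0 were higher, against 0.826%. At an adjusted p of 0.05 with no fold limit 2 of the 10 were lower, against 7.31% of all genes, and 0 were higher, against 3.48%. The genotypes did not overlap for 1 of the 10, with the mutants lower, against 9.7% of all genes in that direction and 6.16% in the other, where none of the 10 was found. For 7 of the 10 the log2 difference was within 0.3 of 0, against 52.2% of all genes. The remaining 8 genes did not pass the test, and for 7 of them the 95% interval of the difference lay within 2-fold in both directions, as it did for 71.2% of all genes. The median log2 difference over the 10 genes was -0.17, beside 0.03 over all genes, with 7 genes below 0 and 3 above.

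**Figure D1:**
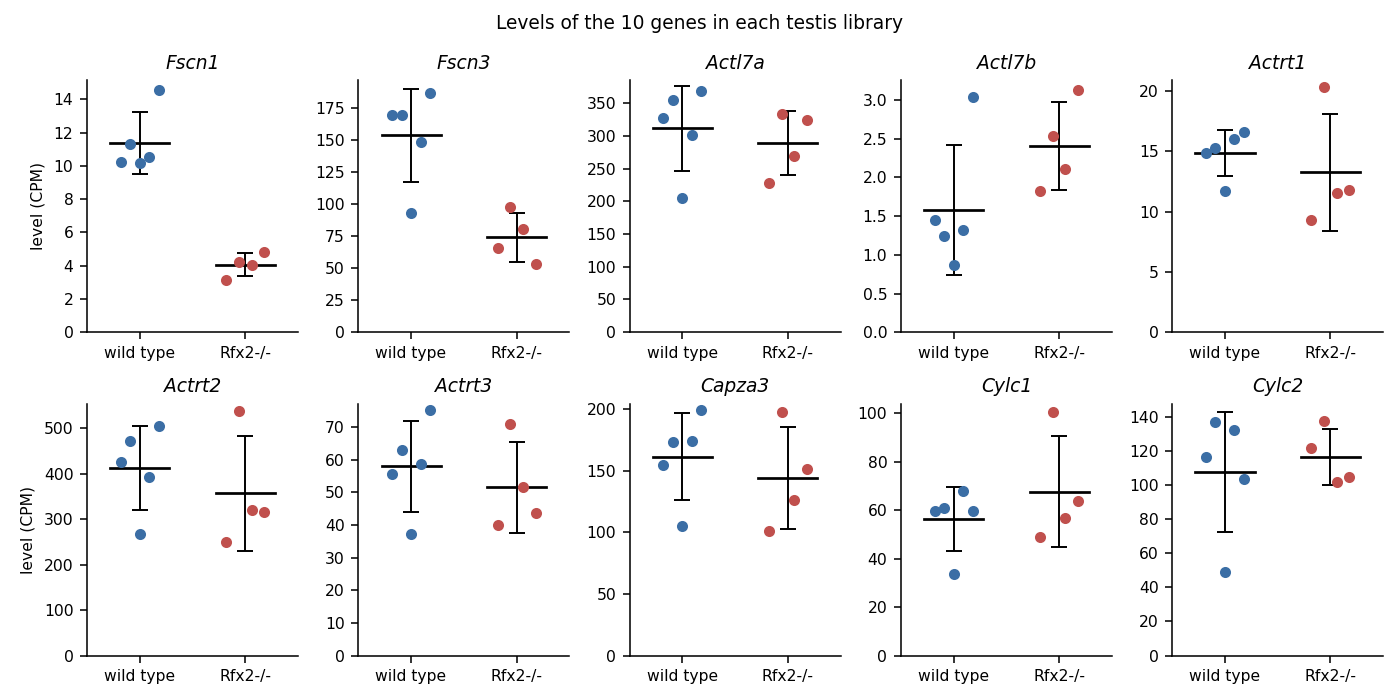
Level of each gene in every library, as normalised read count (CPM), with a linear axis from 0 in each panel. Blue points are the 5 wild type and red points the 4 Rfx2-/- libraries, in replicate order from left to right, and bars give the mean and SD. Only for Fscn1 do the genotypes not overlap.

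The libraries held 13574764 to 15193330 counts, except Rfx2-/- replicate 1 with 28800855. The targeted gene, Rfx2, had 470.5 to 623.2 CPM in wild type and 61.46 to 199.0 in Rfx2-/- libraries (log2 difference -1.91, SE 0.28, adjusted p = 7.81e-04, edgeR quasi-likelihood test), with no overlap. CPM is the read count scaled to the library total after TMM adjustment. Single libraries stood apart over the 10 genes. Wild type replicate 3 was the lowest wild type library for 10 of the 10, with a median log2 deviation from the genotype mean of -0.60, while its median over all genes was -0.00. Rfx2-/- replicate 2 was the highest mutant library for 8 of the 10, with a median deviation of 0.47. In that library all genes with under 2 kb of exons, which 9 of the 10 are, had a median deviation of 0.43, and genes with 4 kb or more had -0.38. In wild type replicate 3 the short genes deviated by -0.09. In the opposite direction, Rfx2-/- replicate 1 was the lowest mutant library for 8 of the 10, with a median deviation of -0.36. Its short genes deviated by -0.27 and its genes with 4 kb or more by 0.21. Wild type replicate 5 was the highest wild type library for 8 of the 10, with a median deviation of 0.32. Within a genotype the levels of the genes thus moved up and down together, and ratios between genes of the same library are given below beside the levels.

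**Figure D2:**
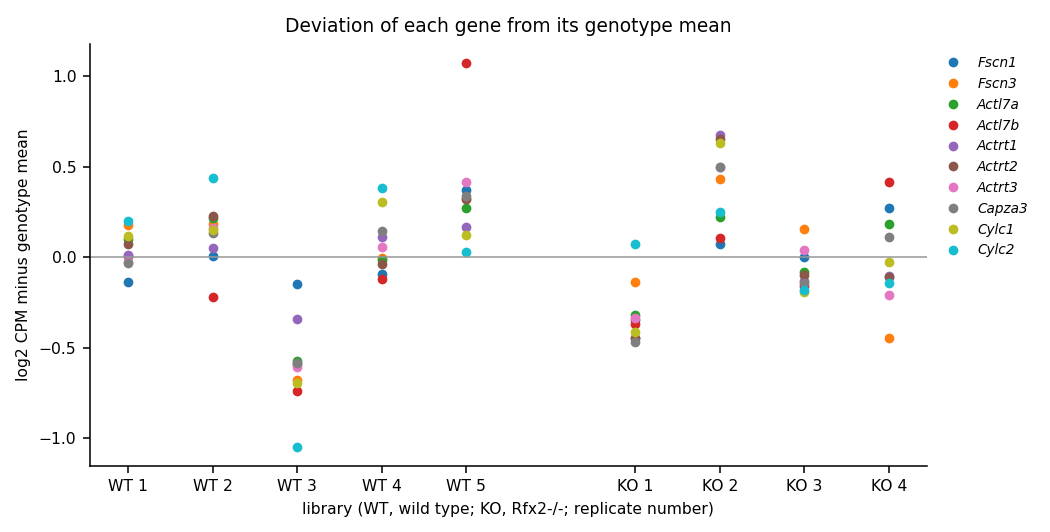
Deviation of log2 CPM from the genotype mean for each of the 10 genes (colours) in each library. In wild type replicate 3 all 10 points lie below 0, and in Rfx2-/- replicate 2 all 10 lie above it.

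Letters of an X-box, the motif bound by RFX factors, were searched for in the promoters. Sequences are shown for Fscn1, Actrt1 and Actl7b and in part for Fscn3. Actrt2 held such letters too, as given below, and its sequence is not shown. RefSeq promoters (GRCm38.p6, 250 bases before the transcript start and 50 after it) were matched for 8 of the 10 genes, all but Capza3 and Cylc2. Both strands were searched for the half-site GTTNCC, for its form GTTGCC, and for paired half-sites, GTNNCC and GGNNAC separated by 0 to 3 bases. The cAMP response element (CRE) TGACGTCA, bound by CREM in spermatids, and its shorter core TGACG were searched too. The 250 bases before the start of Fscn1, on the plus strand of chr5:142960105-142960354, hold paired half-sites at positions -55 to -42, and the CRE at -45 to -38 overlaps their last 4 bases; the joined run is in capitals. The 250 bases of Actrt1 (plus strand, chrX:46328757-46329006) hold paired half-sites at -81 to -68, in capitals. Those of Actl7b (minus strand, chr4:56741426-56741675) hold a single GTTGCC at -17 to -12, in capitals.
Fscn1: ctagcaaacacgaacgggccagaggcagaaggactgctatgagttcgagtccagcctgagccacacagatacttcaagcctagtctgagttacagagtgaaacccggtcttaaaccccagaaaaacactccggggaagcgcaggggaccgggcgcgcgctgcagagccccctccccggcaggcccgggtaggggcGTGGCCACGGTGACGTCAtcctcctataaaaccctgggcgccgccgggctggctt
Actrt1: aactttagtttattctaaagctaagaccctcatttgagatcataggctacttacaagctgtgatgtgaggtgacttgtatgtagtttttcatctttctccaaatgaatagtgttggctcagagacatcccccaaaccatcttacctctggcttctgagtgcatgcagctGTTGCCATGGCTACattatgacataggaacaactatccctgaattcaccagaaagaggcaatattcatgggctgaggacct
Actl7b: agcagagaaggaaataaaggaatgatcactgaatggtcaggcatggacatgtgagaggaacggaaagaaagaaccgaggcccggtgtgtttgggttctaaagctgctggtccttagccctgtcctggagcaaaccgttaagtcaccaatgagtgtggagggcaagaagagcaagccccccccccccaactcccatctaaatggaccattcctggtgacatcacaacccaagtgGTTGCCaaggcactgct

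Fscn3 held no paired half-sites but separate ones, of which the 2 before the RefSeq start are shown with their flanks, on the plus strand at chr6:28427808-28427837 (half-site at -81 to -76, on the minus strand) and chr6:28427848-28427877 (at -41 to -36), with the half-site in capitals.
Fscn3 upstream site: tgctgggacaaaGGTAACctttatagtcac
Fscn3 downstream site: ggtcacagaggtGTTGCCccctaggccaga

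Positions count from the RefSeq transcript start. GENCODE M21 places the start of Fscn3 and of Actl7b farther upstream, so the Fscn3 sites and the Actl7b site lie inside the gene spans printed below. Before the RefSeq start, paired half-sites were present in 2 of the 8 promoters (Fscn1 and Actrt1). GTTGCC was present in 4 of 8 (Actl7b, Actrt1, Actrt2 and Fscn3), and GTTNCC in the same 4. The Fscn1 window held no GTTNCC, so its pair matches only the looser letters GTNNCC and GGNNAC. TGACGTCA was present in 1 of 8 (Fscn1) and TGACG in 2 of 8 (Actrt3 and Fscn1). Over the whole 300-base windows paired half-sites were in 3 of 8, with Actrt2 added, and the other counts were the same. Among 32851 RefSeq promoters of the same length, paired half-sites were found in 3.86%, GTTGCC in 12.5%, GTTNCC in 45.3%, TGACGTCA in 1.79% and TGACG in 20.8%. The Actl7a and Cylc1 windows held no match to any of these letters. A match is a description of the letters only, and no binding was measured in these files. In the study's supplementary lists Actl7b is named with an RFX2 promoter peak, and Actrt2 and Actrt3 are named as CREM-dependent genes. Fscn1, Fscn3 and Actrt1, whose matches are shown above, are named in neither of these lists. The study's text reports Fscn1 as downregulated in the mutants at both ages it examined.

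Fscn1 encodes the broadly expressed fascin of filopodia and other actin bundles (ENSMUSG00000029581, GRCm38 chr5:142960343-142973185, plus strand, 5 exons). Its level was 10.24, 11.30, 10.16, 10.54 and 14.57 CPM in wild type replicates 1 to 5. The values in Rfx2-/- replicates 1 to 4 were 3.15, 4.21, 4.02 and 4.84 CPM. Every mutant library thus lay below every wild type library, and the highest mutant value was under the lowest wild type value by more than the SD of either genotype. The means were 11.4 ± 1.85 (SD, n = 5) and 4.05 ± 0.70 CPM (SD, n = 4), so the mutant level was 35.7% of wild type. The log2 difference was -1.49 (SE 0.19, 95% interval -1.90 to -1.09, adjusted p = 1.90e-04, edgeR quasi-likelihood test). These values rest on 59 to 187 counts per library. Leaving out any one library gave -1.56 to -1.35 and kept the call. When the null hypothesis was set at the 2-fold limit itself, the adjusted p was 0.0828.

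Fscn1 is also expressed in somatic cells, so the summed levels of somatic markers are given beside it. Sertoli markers (10 genes) summed to 506.9 to 665.1 CPM in wild type and 559.9 to 1078 in Rfx2-/- libraries. Endothelial markers (4 genes) summed to 23.9 to 30.2 and 11.5 to 35.9 CPM. Macrophage markers (7 genes) summed to 109.6 to 147.7 and 126.7 to 241.2 CPM, peritubular markers (4 genes) to 114.7 to 132.9 and 87.9 to 162.7, and Leydig markers (7 genes) to 741.0 to 952.1 and 699.7 to 1082. In each of these lists the genotypes overlapped, 0 genes were called lower or higher, and every gene had counts in each library. Rfx2-/- replicate 2 was the highest mutant library for the Sertoli, macrophage and Leydig sums and the lowest for the endothelial and peritubular sums. The other mutant libraries had at most 780.2 CPM for Sertoli, 156.9 for macrophage and 965.9 for Leydig markers. The median log2 differences were 0.33 for Sertoli, -0.21 for endothelial, 0.38 for macrophage, 0.11 for peritubular and 0.19 for Leydig markers. At an adjusted p of 0.05 (edgeR) 1 of the 10 Sertoli markers was higher, against 3.48% of all genes tested, and 0 markers of the other lists passed. The cells in which Fscn1 was counted were not separated here.

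The 3 genes whose profile over the 9 libraries was nearest to that of Fscn1, among 12894 genes compared, were Stk33, Dnajb13 and 4930433I11Rik. Nearness was the root mean square difference of log2 CPM relative to the wild type mean, and was 0.18, 0.20 and 0.21. The difference between genotypes is part of this measure, so mutant levels lowered about as much as that of Fscn1 follow from the choice. Stk33, a serine/threonine kinase, had 374.8 ± 41.8 CPM (SD, n = 5) in wild type and 131.4 ± 15.0 in Rfx2-/- testes (SD, n = 4), a log2 difference of -1.51. For Dnajb13, a component of flagellar radial spokes, the means were 245.4 and 96.1 CPM, and for 4930433I11Rik they were 18.3 and 6.28 CPM.

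Fscn3 encodes the fascin of the testis (ENSMUSG00000029707, chr6:28427789-28438622, plus strand, 7 exons). Its level was 169.1, 169.3, 93.2, 148.7 and 186.7 CPM in wild type replicates 1 to 5. Rfx2-/- replicates 1 to 4 had 65.7, 97.5, 80.6 and 53.1 CPM. The genotypes overlapped through a single pair, wild type replicate 3 and Rfx2-/- replicate 2, the libraries that were low and high for the whole group of genes. The means were 153.4 ± 36.3 (SD, n = 5) and 74.2 ± 19.2 CPM (SD, n = 4), so the mutant level was 48.4% of wild type. The log2 difference was -1.05 (SE 0.23, 95% interval -1.54 to -0.55) with an adjusted p of 0.0104 by edgeR's quasi-likelihood test, just over the limit of 0.01. Without wild type replicate 3 the difference was -1.14 (adjusted p = 0.00317, edgeR) and without Rfx2-/- replicate 2 it was -1.21 (adjusted p = 0.00179), and both passed. No other omission of a single library passed, with adjusted p from 0.0231 to 0.0421 (edgeR). Among the omissions that did not pass, the difference was largest without wild type replicate 4 (-1.06). It was smallest without Rfx2-/- replicate 4, the lowest library (-0.88, adjusted p = 0.0421, edgeR). It was also under 2-fold without wild type replicate 5 (-0.97) or Rfx2-/- replicate 1 (-0.96). DESeq2 gave -1.04 with an adjusted p of 2.11e-04 and thus also passed the limit. Fscn3 shares 58 exon bases with Gcc1 on the opposite strand, and the log2 difference of Gcc1 was -0.22 (adjusted p = 0.347, edgeR).

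Within a library, Fscn3 could be set against other genes of the group, which removes the scaling of libraries. These ratios were chosen after the values had been seen and carry no test. The ratio of Fscn3 to Actrt2 counts was 0.398, 0.358, 0.347, 0.378 and 0.370 in wild type replicates 1 to 5. It was 0.262, 0.181, 0.251 and 0.167 in Rfx2-/- replicates 1 to 4. The ranges did not overlap, and wild type replicate 3 lay just below the other wild type libraries. Fscn3 to Actl7a was 0.454 to 0.517 in wild type and 0.164 to 0.299 in Rfx2-/- libraries, and Fscn3 to Capza3 was 0.854 to 1.10 and 0.351 to 0.65. Fscn1 to Actrt2 was 0.0239 to 0.0379 and 0.00781 to 0.0153.

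**Figure D3:**
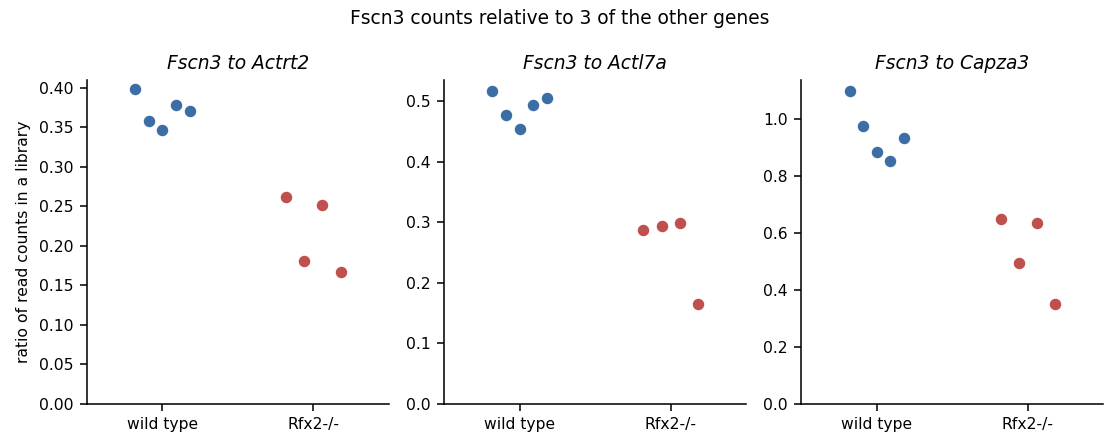
Ratio of Fscn3 counts to those of Actrt2, Actl7a and Capza3 in each library (linear axes from 0, blue wild type, red Rfx2-/-). In each panel all 4 mutant libraries lie below all 5 wild type libraries, with 0.262 the highest mutant and 0.347 the lowest wild type ratio for Actrt2.

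The 2 fascins were also compared with each other. The ratio of Fscn3 to Fscn1 counts was 16.5, 15.0, 9.17, 14.1 and 12.8 in wild type libraries, and in the mutants it was 20.1 to 23.2 except in replicate 4, where it was 11. The mean log2 ratio was 0.44 higher in Rfx2-/- testis, and the exact two-sided permutation test gave p = 0.143 (adjusted over 3 ratios, 0.214), where 0.0159 was the smallest p the design allows. A different extent of the difference in the 2 genes was therefore not shown. The third fascin gene, Fscn2, known from photoreceptors and hair cells, had 1.65 ± 0.54 CPM (SD, n = 5) in wild type and 1.85 ± 0.35 in Rfx2-/- testes (SD, n = 4), with a log2 interval of -0.45 to 0.78.

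Markers of elongating spermatids are given beside Fscn3. Their 13 genes summed to 9227 to 19450 CPM in wild type and 7490 to 12460 in Rfx2-/- libraries, so that the genotypes overlapped, and the median log2 difference was -0.58, from -1.21 (Prm1) to 0.42 (Hils1). At an adjusted p of 0.05 (edgeR) 5 of the 13 were lower, against 7.31% of all genes tested, and 0 higher, against 3.48%. At the 0.01 and 2-fold limits 0 were called. The lowest wild type sum belonged to replicate 3 and the highest mutant sum to replicate 2. The 7 round spermatid markers summed to 463.6 to 701.8 CPM in wild type and 710.5 to 997.1 in Rfx2-/- libraries, with no overlap and a median log2 difference of 0.38. At an adjusted p of 0.05 (edgeR) 1 of the 7 was higher and 0 lower, against the same 3.48% and 7.31% of all genes, and 0 were called. The 8 meiotic markers had a median of 0.61, with overlapping sums of 1920 to 2276 and 2219 to 3358. The sum of 3358 belonged to Rfx2-/- replicate 2, and the other mutant libraries had at most 2472. Of the 8, 1 was higher at an adjusted p of 0.05 (edgeR), against 3.48% of all genes. The 8 spermatogonial markers had a median of 0.09, with sums of 190.5 to 223.3 and 175.9 to 277.4, the last again in Rfx2-/- replicate 2. The part of cell composition in the values of the 10 genes was not tested.

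Actl7a encodes an actin-like protein of the layer between acrosome and nucleus (ENSMUSG00000070979, chr4:56743413-56744925, plus strand, 1 exon). Its level was 327.3, 355.0, 205.3, 301.9 and 368.7 CPM in wild type replicates 1 to 5. The 4 Rfx2-/- libraries had 228.5, 332.7, 269.1 and 323.9 CPM. The mutant values all lay inside the wild type range. The mean was 311.6 ± 64.8 (SD, n = 5) in wild type and 288.6 ± 48.9 CPM (SD, n = 4) in Rfx2-/- testes. The log2 difference was -0.11 with a 95% interval of -0.53 to 0.30 (adjusted p = 0.733, edgeR).

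Actl7b, the closest paralogue of Actl7a, lies head to head with it on the opposite strand (ENSMUSG00000070980, chr4:56740005-56741443, minus strand, 1 exon), the 2 starts being 1970 bases apart. Its level was 1.45, 1.24, 0.86, 1.33 and 3.04 CPM in wild type replicates 1 to 5. The values in Rfx2-/- replicates 1 to 4 were 1.82, 2.54, 2.11 and 3.14 CPM. Wild type replicate 5 was as high as the mutant libraries, and the other 4 wild type libraries lay below every mutant one. The means were 1.58 ± 0.84 (SD, n = 5) and 2.403 ± 0.571 CPM (SD, n = 4), and the log2 difference was 0.60 (95% interval -0.13 to 1.33, adjusted p = 0.266, edgeR).

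The count table does not measure Actl7b well. A predicted gene on the opposite strand, Gm26657 (ENSMUSG00000096930, chr4:56740070-56741377), covers 1308 of the 1439 exon bases of Actl7b, and 131 bases lie outside it. Of the 1390 stretches of 50 bases in the exon, 33 contain no base of Gm26657. The authors left out reads that overlapped exons of different genes. Gm26657 itself was listed at 0 counts in all 9 libraries, and Actl7b received 13 to 55 counts per library. The values of Actl7b are thus uncertain, and its level cannot be compared with that of the other genes. The ratio of Actl7b to Actl7a counts was 0.00349 to 0.00824 in wild type and 0.00763 to 0.00969 in Rfx2-/- libraries, with a mean log2 difference of 0.80 (exact two-sided permutation test, p = 0.0635, adjusted over 3 ratios 0.19).

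The genes Actrt1, Actrt2 and Actrt3 encode the actin-related proteins of the T group, found in the sperm head theca and calyx. Actrt2 (ENSMUSG00000051276, chr4:154666433-154667867, minus strand, 1 exon) had 425.0, 472.9, 268.2, 393.4 and 504.6 CPM in wild type replicates 1 to 5. Rfx2-/- replicates 1 to 4 had 251.0, 539.1, 320.4 and 316.9 CPM. Rfx2-/- replicate 2 was above every wild type library while the other 3 mutant libraries were below 4 of the 5 wild type libraries. The log2 difference was -0.21 with a 95% interval of -0.73 to 0.31 (adjusted p = 0.595, edgeR). Without Rfx2-/- replicate 2 it was -0.48 (adjusted p = 0.0971), which did not pass either.

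Actrt1 (ENSMUSG00000046615, chrX:46329007-46330345, plus strand, 1 exon), whose promoter letters include paired half-sites, had 14.9, 15.3, 11.7, 16.0 and 16.6 CPM in wild type replicates 1 to 5. The 4 Rfx2-/- libraries had 9.32, 20.3, 11.6 and 11.8 CPM. The genotypes overlapped, with replicate 2 again the highest mutant library. The log2 difference was -0.17 (95% interval -0.65 to 0.31, adjusted p = 0.638, edgeR). Actrt3, whose product binds profilin 3 (ENSMUSG00000037737, chr3:30597073-30599939, minus strand, 2 exons), had 37.1 to 75.3 CPM in wild type and 39.9 to 71.1 CPM in Rfx2-/- libraries. Its mutant range lay within the wild type range, and the log2 difference was -0.17 (95% interval -0.64 to 0.30, adjusted p = 0.64, edgeR).

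Capza3 encodes the male germ cell alpha subunit of the capping protein (ENSMUSG00000041791, chr6:140041252-140042778, plus strand, 1 merged exon). Its level was 154.2, 173.1, 105.3, 174.2 and 199.4 CPM in wild type replicates 1 to 5. The values in Rfx2-/- replicates 1 to 4 were 101.1, 197.5, 126.4 and 151.1 CPM. The genotypes overlapped, and the log2 difference was -0.16 (95% interval -0.64 to 0.32, adjusted p = 0.657, edgeR). Its beta subunit partner Capzb had 266.3 ± 31.6 CPM (SD, n = 5) in wild type and 249.4 ± 46.7 in Rfx2-/- testes (SD, n = 4), with a log2 interval of -0.44 to 0.25. Capza3 shares 107 exon bases with Plcz1 on the opposite strand, whose log2 difference was 0.36 (adjusted p = 0.306, edgeR).

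The cylicins were the members other than Actl7b with mean levels above wild type. Cylc1 (ENSMUSG00000073001, chrX:111110418-111125854, plus strand, 6 exons) had 59.7, 61.0, 33.9, 67.8 and 59.8 CPM in wild type replicates 1 to 5. Rfx2-/- replicates 1 to 4 had 48.9, 100.7, 57.0 and 63.9 CPM. The high mutant value belonged to replicate 2, and the other 3 mutant libraries lay among the wild type libraries. The log2 difference was 0.26 (95% interval -0.26 to 0.78, adjusted p = 0.496, edgeR). Cylc2 (ENSMUSG00000039555, chr4:51216678-51230272, plus strand, 5 exons) had 49.0 to 137.2 CPM in wild type and 102.0 to 137.4 CPM in Rfx2-/- libraries. Its wild type spread came mostly from replicate 3, and the log2 difference was 0.12 (95% interval -0.43 to 0.66, adjusted p = 0.792, edgeR). The ratio of Cylc2 to Cylc1 counts was 1.45 to 2.25 in wild type and 1.36 to 2.49 in Rfx2-/- libraries, with a mean log2 difference of -0.05 (exact two-sided permutation test, p = 0.81).

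**Figure D4:**
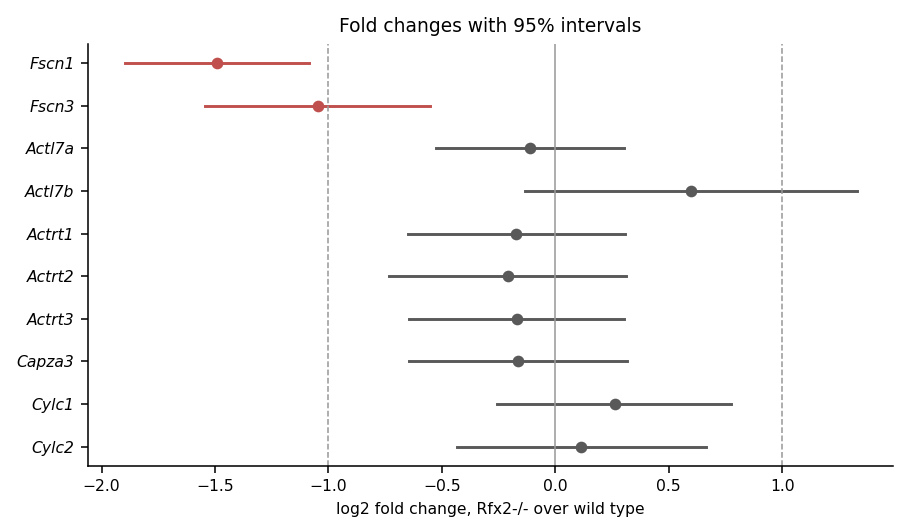
Log2 fold change of Rfx2-/- over wild type for each gene (points) with its 95% interval (lines) from the edgeR fit. Dashed lines mark 2-fold in either direction. The interval of Fscn1 lies beyond -1, that of Fscn3 (-1.54 to -0.55) spans -1, and 7 of the other 8 lie between the dashed lines.

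The results of these genes rested in part on single libraries. The fit described next kept wild type replicate 5 and Rfx2-/- replicate 1, which deviated the opposite way from the 2 libraries it left out. Leaving out wild type replicate 3 and Rfx2-/- replicate 2 together was chosen after the values had been seen, and since these were the lowest wild type and mostly the highest mutant library for these genes, their removal lowers the mutant level relative to wild type by construction. In that fit 6 of the 10 genes were lower at an adjusted p of 0.05 (edgeR), against 12.5% of all genes tested, and 0 were higher, against 6.17%. Actrt2 had a log2 difference of -0.60 (adjusted p = 0.00325), Actrt1 -0.53 (adjusted p = 0.0145), Actrt3 -0.49 (adjusted p = 0.0153) and Capza3 -0.47 (adjusted p = 0.0261), all under 2-fold and none a call. Fscn3 was called, at -1.34 (adjusted p = 6.36e-06), and remained farther from 0 than each of these. The 95% intervals from all 9 libraries, given above, include the differences of these 4 genes.

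Levels of different genes were compared per kb of exon. In wild type testis the order of the means was Actrt2 (287.7 ± 63.7 CPM per kb, SD, n = 5), Actl7a (206.0 ± 42.8), Capza3 (132.0 ± 28.8), Fscn3 (80.7 ± 19.1), Cylc2 (64.3 ± 21.2), Actrt3 (29.5 ± 7.05), Cylc1 (28.3 ± 6.53), Actrt1 (11.1 ± 1.42) and Fscn1 (4.25 ± 0.69). Actl7b was left out of this order for the reason given above. The ranges of neighbours overlapped from Actrt2 down to Cylc1, while Actrt1 was separate from Cylc1 above it and from Fscn1 below it. In Rfx2-/- testis the order of the first 3 genes was the same, at 248.7 ± 87.5, 190.7 ± 32.3 and 117.8 ± 33.6 CPM per kb (SD, n = 4). Fscn3, at 39.0 ± 10.1 CPM per kb, came after Cylc2 (69.6 ± 9.85), and the ranges of these 2 did not overlap, whereas in wild type they did. Fscn1 had 1.52 ± 0.26 CPM per kb in Rfx2-/- testis.

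The wider actin machinery was described with 4 lists of 68 genes in all, of which 66 were tested (Acta1 and Actc1 had too few counts). Of the 66 genes, 4 were called lower (Actl11, Wdr1, Dpy19l2 and Actn2) and 2 higher (Vil1 and Dbn1), beside 3.68% and 0.826% of all genes tested. The median log2 differences were -0.20 for the perinuclear theca and acrosome anchoring list (8 genes), 0.22 for regulators of actin monomers and filament ends (17 genes), 0.06 for actins and actin-related proteins (23 genes tested) and 0.04 for bundling and crosslinking proteins (18 genes), beside 0.03 for all genes. Rfx2-/- replicate 2 was the lowest mutant library for all 4 genes called lower, which have 3013 to 3993 bases of exon, and the highest for 8 of the 10 shorter genes above.

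Among actins and actin-related proteins, 1 of 23 was lower and 0 were higher. Actl11, a testis actin-like gene of a single exon, fell by 2.15 on the log2 scale, from 462.7 ± 99.1 (SD, n = 5) to 104.2 ± 41.4 CPM (SD, n = 4) (SE 0.29, adjusted p = 3.86e-04, edgeR). Its wild type libraries had 289.8 to 534.1 CPM and its mutant libraries 53.2 to 145.7 CPM. Actb, the major conventional actin, had 489.9 ± 37.0 and 383.3 ± 33.6 CPM, a log2 difference of -0.35 that did not pass (adjusted p = 0.107, edgeR).

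In the theca list 1 of 8 was lower and 0 were higher. Dpy19l2, an inner nuclear membrane protein that holds the acrosome to the nucleus, fell by 1.10 on the log2 scale, from 254.6 ± 33.9 (SD, n = 5) to 119.0 ± 38.6 CPM (SD, n = 4) (SE 0.23, adjusted p = 0.00817, edgeR). Its span overlaps Cypt4. Without Rfx2-/- replicate 2 the difference was -0.89, under the fold limit, and the call was lost in 8 of 9 omissions of a single library, remaining only without Rfx2-/- replicate 1. Actl9, an actin-like theca protein and the gene of this list most like the Actl and Actrt genes, had 309.1 ± 65.4 and 165.1 ± 19.6 CPM with no overlap (log2 difference -0.91, adjusted p = 0.00687, edgeR), which was under 2-fold and not a call. Leaving out any one library gave -0.98 to -0.80, under the fold limit. The adjusted p (edgeR) reached 0.028 and stayed under 0.01 only without wild type replicate 3 (0.00148) or Rfx2-/- replicate 2 (0.00152). Without both wild type replicate 3 and Rfx2-/- replicate 2, a fit chosen after the values had been seen, Actl9 was called (-1.09). Actl9 was singled out after its values were seen. Calicin (Ccin), the calyx partner of the cylicins, had a log2 difference of -0.31 (adjusted p = 0.285, edgeR).

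Among regulators of monomers and filament ends, 1 of 17 was lower and 0 were higher. Wdr1, which helps cofilin to take filaments apart, fell by 1.03 on the log2 scale, from 97.4 ± 9.30 (SD, n = 5) to 47.6 ± 11.5 CPM (SD, n = 4) (SE 0.17, adjusted p = 0.00176, edgeR). Without Rfx2-/- replicate 2 the difference was -0.91 and without wild type replicate 2 it was -0.97, again under the fold limit, and without Rfx2-/- replicate 4 it was -0.95 (adjusted p = 0.0123).

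Bundling and crosslinking genes held 1 lower and 2 higher calls among 18. Actn2, an alpha-actinin, fell by 1.22 on the log2 scale, from 4.45 ± 0.77 (SD, n = 5) to 1.88 ± 0.40 CPM (SD, n = 4) (SE 0.22, adjusted p = 0.00304, edgeR). These values rest on 22 to 70 counts per library. The adjusted p rose to 0.0105, 0.0109, 0.0113 and 0.0153 without wild type replicate 1, 4 or 5 or Rfx2-/- replicate 4, just over the limit. Dbn1, the filament side-binding protein drebrin, rose from 49.7 ± 10.5 (SD, n = 5) to 185.1 ± 51.7 CPM (SD, n = 4), or 3.73-fold (SE 0.22 on the log2 scale, adjusted p = 9.7e-05, edgeR). Its wild type libraries had 34.5 to 64.1 CPM and its mutant libraries 124.6 to 233.9 CPM. Vil1, villin, rose 6.99-fold, from 1.05 ± 0.31 (SD, n = 5) to 7.37 ± 3.33 CPM (SD, n = 4; SE 0.33 on the log2 scale, adjusted p = 1.27e-04, edgeR), and its span overlaps Usp37. Its level rests on only 8 to 18 counts per wild type library and 64 to 259 per mutant library. Bundling genes thus held calls in both directions, with Fscn1 and Actn2 lower and Dbn1 and Vil1 higher.

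**Figure D5:**
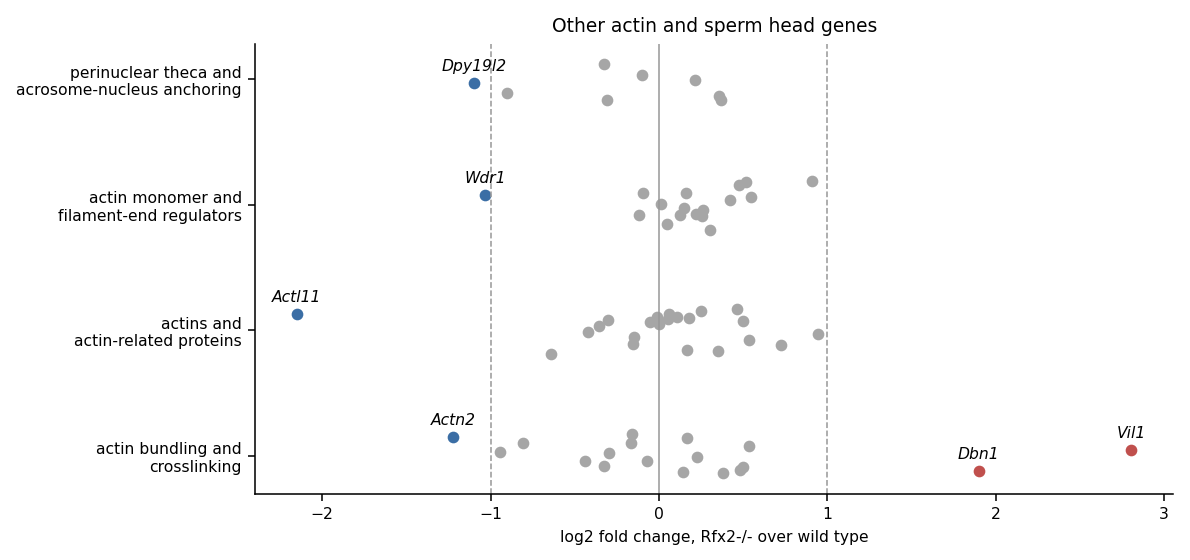
Log2 fold change of Rfx2-/- over wild type for the 66 tested genes of 4 lists (rows; vertical position within a row is arbitrary). Blue marks genes called lower, red genes called higher and grey genes not called, and dashed lines mark 2-fold. Actl11 lies farthest to the left at -2.15 and Vil1 farthest to the right at 2.81.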

How the data were processed

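Testis RNA of 9 mice had been extracted on silica columns and sequenced from TruSeq libraries. According to the methods, the authors mapped single reads of 50 bases with STAR, discarded reads with more than one genomic position, counted reads over the exons of each gene model with featureCounts and left out reads overlapping exons of different genes. Another section of the same methods gives a shorter read length and another aligner for these libraries, and which applies is not known. The stretches of 50 bases counted for Actl7b take the first. The use of strand is not given in the sources used here. The submitters' processing notes name CASAVA 1.8.2, STAR 2.4, featureCounts 1.4.6 and GRCm38. The table they deposited gives unnormalised read counts, 1 whole number per gene and library.

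Groups were taken from the labelled genotype. Replicate numbers follow deposition order. Gene names, positions and exon lengths came from GENCODE M21 (96.6% of IDs matched). Genes kept by filterByExpr were tested with the quasi-likelihood test of edgeR 4.0.16 in R 4.3.3 (TMM factors, genotype as the single factor, all 9 libraries), and DESeq2 1.42.0 was an alternative. Ratios of counts were compared by exact permutation tests (scipy 1.17.1). The procedure was tested on simulated data. Libraries of one genotype differed by a chi-square of at least 4.52 per gene, so each was taken as a replicate. Counting error is a lower bound of the error, since without molecular identifiers 1 molecule can give several reads.

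The 10 genes and all lists were chosen with earlier results of these data known. Named genes were every member, the called genes of each pathway list, Rfx2 as a check of the labels, and the 3 genes with a mean of at least 50 counts nearest to a called member, among genes with a name and counts in every library. Other scalings, filters, tests and limits, removal of a length trend, and leaving out each library were tried, and leaving out 2 libraries together was added after seeing the data.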

Additional observations from a re-analysis of the deposited data

Results flagged for a closer look

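In 4 of 26 groups of libraries, 1 library lay far from the others of its genotype by Dixon's criterion. Chance alone flags about 1 in 20 such groups, or 1.3 here. The groups are not independent, since genes of a library moved together and both Actl7b results below rest on the same Actl7b counts. An excess over 1.3 can therefore not be read from the 4. Wild type replicate 5 was the highest wild type library for Actl7b, at 3.04 CPM against 0.864 to 1.45 in the other 4, a gap of 0.73 of the range. The same library had the highest log2 ratio of Actl7b to Actl7a, at -6.92 against -8.16 to -7.82, a gap of 0.72. It was also the highest for Fscn1, at 14.57 CPM against 10.16 to 11.30, a gap of 0.743. Wild type replicate 3 was the lowest for Cylc1, at 33.88 CPM against 59.66 to 67.78, a gap of 0.761.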

How the results depend on the processing

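Fscn1 kept its direction under all 18 alternatives and its call under 17, the exception being the edgeR test against the 2-fold limit (adjusted p = 0.0828). Fscn3 kept its direction under all 18 (-1.34 to -0.88) and passed under 8. Called genes of the 10 numbered 2 with no filter on low counts, with DESeq2, with the unadjusted p, with an adjusted p of 0.05, after removal of the length trend, or without wild type replicate 3, Rfx2-/- replicate 2 or both (the last chosen after seeing the data), and 0 in the test against the 2-fold limit (1 to 2 when 1 library was left out). Over all genes, 575 lower and 129 higher calls became 272 and 29 in the test against the 2-fold limit and 1142 and 544 at an adjusted p of 0.05, the higher calls 211 with DESeq2 and 262 with the unadjusted p, and leaving out 1 library gave 447 to 632 and 92 to 175. In the pathway lists, lower calls were 2 with total counts in place of TMM and 1 in the test against the 2-fold limit, and 1 to 4 when 1 library was left out, with 1 without Rfx2-/- replicate 4 and 2 without Rfx2-/- replicate 2 or wild type replicate 1, 2, 4 or 5. Higher calls were 2 to 4, with 4 without Rfx2-/- replicate 1. Calls were lost under 11 of 18 alternatives for Dpy19l2, 6 for Wdr1 and 5 for Actn2, and under 0 for Actl11, Vil1 and Dbn1. Small differences changed sign: Actl7a with total counts (0.033) and without Rfx2-/- replicate 1 (0.02, within -0.189 to 0.02 over single omissions), Actrt1 (0.001, within -0.454 to 0.001) and Capza3 (0.008, within -0.354 to 0.008) without that library, Cylc2 without wild type replicate 3 (-0.029, within -0.029 to 0.217) and without both libraries (-0.157, with Cylc1 -0.135), and the Cylc2 to Cylc1 ratio without wild type replicate 2 (0.017) or Rfx2-/- replicate 2 (0.073), within -0.216 to 0.073 over single omissions. The cause was not tested, beyond fewer samples where a library was left out. No paired analysis was possible because replicate numbers follow deposition order and the labels do not say which mice were littermates. Actl7b rests on 13 to 55 counts per library.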
